A study of Mus musculus with 20 samples.

Results

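The mouse Stefin A genes encode a tandem family of small intracellular cystatins, and 7 of them were followed here: Stfa1, Stfa2, Stfa2l1, Stfa3, BC100530, Gm5483 and Gm5416. They were chosen by name after they had been seen to differ between macrophages of monocyte and of B-cell origin, and each was found in both single-cell tables, among 15855 genes in the culture table and 15333 in the tumor table. Neutrophil-like cells were taken as those with a summed S100a8 and S100a9 count of at least 100 in culture or 300 in tumor. S100a8 and S100a9 are the 2 chains of calprotectin, an abundant neutrophil protein.

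The study asked whether B-cell precursors become macrophages in cancer. In its culture arm, bone marrow B cells or monocytes were grown in medium conditioned by 4T1.2 cells, a mouse mammary carcinoma line, to give B-MF and Mo-MF, with 2 libraries of each. In its tumor arm, TAM (tumor-associated macrophages sorted as F4/80+CD11b+) came from 4 BALB/c mice bearing 4T1.2 tumors, 1 library each, which the table numbers 2 to 5. Open chromatin was measured by ATAC-seq in CSF1R+ and CSF1R− cells of bone marrow (BM) and spleen, 3 libraries each, which the labels call macrophages and the study's methods describe as B-cell precursors of naive mice. No transgene or deletion is named for any of these groups, all donors were young female mice, and the strain of the culture and ATAC-seq donors is not given for these libraries. Nothing in the labels ties the culture libraries to separate cultures, so their p-values measure only the spread between these samples.

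Stefins bind reversibly in the active site of papain-like cysteine proteases, the lysosomal cathepsins among them, and lack a secretion signal, so that they act inside the cell. Stefin B, encoded by Cstb, is found in most tissues, whereas the mouse Stefin A genes have multiplied into a cluster that is known for its expression in maturing neutrophils and in keratinised epithelium. Neutrophils fill their granules in waves during development in the marrow, with Ltf (lactoferrin), Camp (cathelicidin) and Ngp transcribed in the middle of that course and switched off before release.

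The 7 genes lie on mouse chromosome 16 in 2 runs that point toward each other (GENCODE vM21, mm10). On the plus strand, in order, are Stfa2l1 (chr16:36156811-36161953), Gm5483 (chr16:36184212-36188111), Gm5416 (chr16:36210403-36217788) and Stfa1 (chr16:36276951-36285373). On the minus strand are BC100530 (chr16:36359382-36367748), Stfa2 (chr16:36403992-36408457) and Stfa3 (chr16:36450537-36455392). Among them sit further genes of the same family, including 2010005H15Rik before Stfa1, the pseudogene Gm4758 after it, and BC117090 before BC100530.

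**Figure D1:**
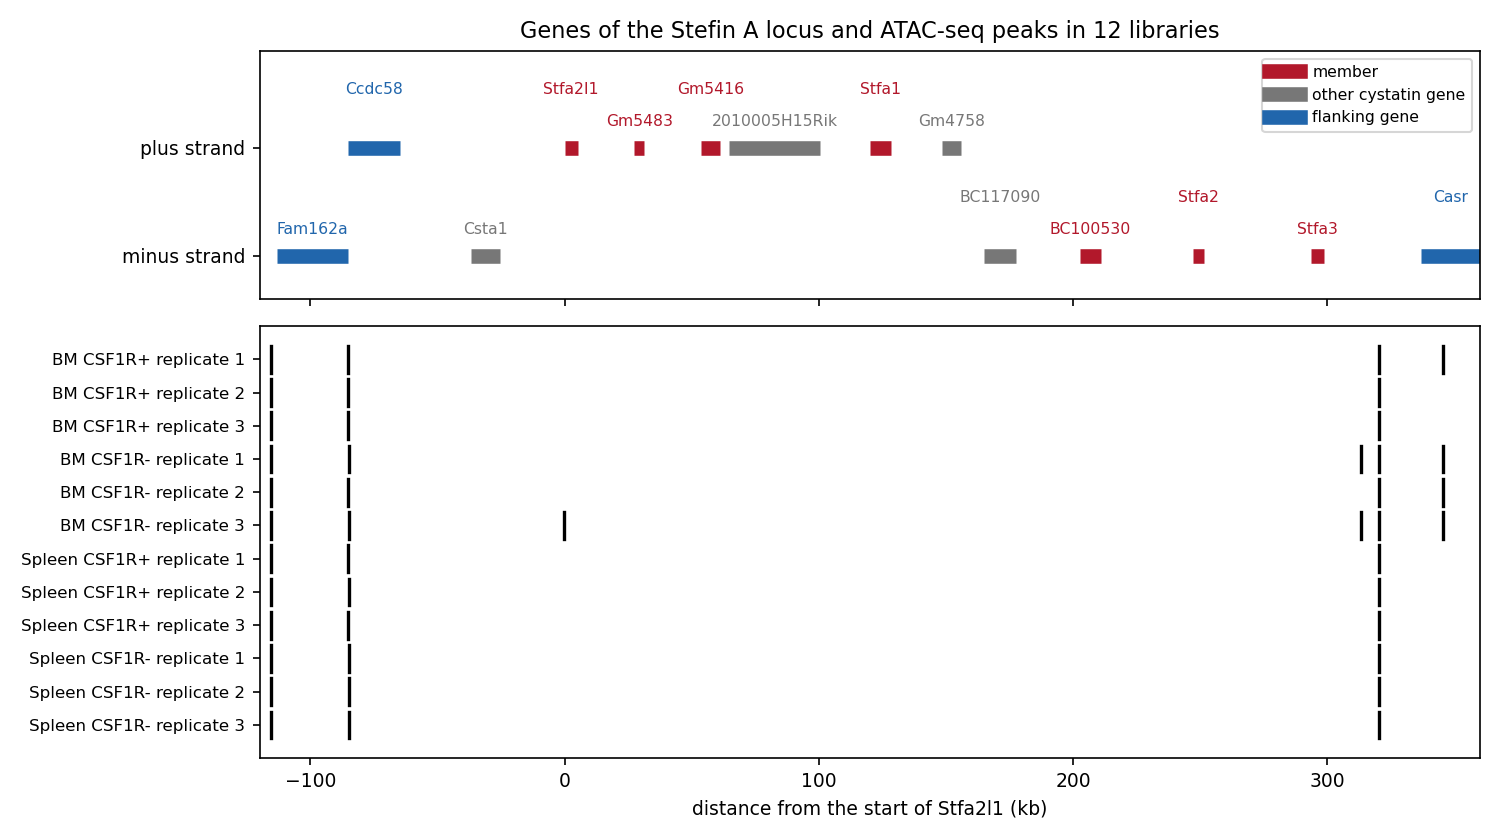
Map of the Stefin A locus, with distance from the Stfa2l1 start in kb on the x axis, genes on the plus strand above those on the minus strand, and below them 1 line per ATAC-seq library with a tick for each peak. The ticks cluster at both ends, where all 12 libraries have a peak, and a single tick lies over a Stefin A gene, at Stfa2l1 in BM CSF1R− replicate 3.

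The promoters are shown because the 7 genes are neighbours whose promoters are alike and because the ATAC-seq data bear on them. The stretches below are the 83 bases that end with a run shared by all 7, read 5′ to 3′ on each gene's own strand from RefSeq promoter windows (250 bases before to 50 after the gene start, GRCm38.p6). Capitals mark CACACTCATT at the left, GAGGAGGAG in the middle and ACCTTTAAAACCC at the right.
Stfa2l1: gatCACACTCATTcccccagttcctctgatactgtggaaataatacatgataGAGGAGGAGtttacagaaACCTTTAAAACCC
Gm5483: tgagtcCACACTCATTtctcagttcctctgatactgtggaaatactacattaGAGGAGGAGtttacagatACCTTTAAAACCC
Gm5416: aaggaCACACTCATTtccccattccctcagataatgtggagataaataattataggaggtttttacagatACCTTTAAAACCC
Stfa1: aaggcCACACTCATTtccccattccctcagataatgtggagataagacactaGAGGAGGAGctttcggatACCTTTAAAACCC
BC100530: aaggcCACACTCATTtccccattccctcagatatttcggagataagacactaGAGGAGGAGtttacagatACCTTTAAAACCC
Stfa2: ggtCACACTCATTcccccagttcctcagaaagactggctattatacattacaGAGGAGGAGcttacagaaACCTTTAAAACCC
Stfa3: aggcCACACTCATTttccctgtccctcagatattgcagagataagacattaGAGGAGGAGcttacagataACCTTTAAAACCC

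These stretches lie at chr16:36156705-36156787, chr16:36184110-36184192, chr16:36210253-36210335 and chr16:36277045-36277127 for the plus-strand genes from Stfa2l1 to Stfa1. For the minus-strand genes BC100530, Stfa2 and Stfa3 they lie at chr16:36367570-36367652, chr16:36408383-36408465 and chr16:36455414-36455496. The RefSeq starts of Stfa1, BC100530 and Stfa2 (36277148, 36367570 and 36408363) lie inside the GENCODE spans given above, so their stretches overlap those spans. The run ACCTTTAAAACCC was found in 9 of 32851 promoter windows (0.027%), and all 9 belong to this locus, the other 2 being Cstdc3 and Gm7260. It starts 12 bases before the RefSeq start of BC100530, 80 before that of Gm5416 and 32 to 36 before those of the other 5 genes. CACACTCATT stood in 26 windows (0.079%), and GAGGAGGAG in 6 of the 7 and in 1.85% of all windows on the printed strand. Gm5416 is the member without GAGGAGGAG.

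Between pairs, the promoter windows were 76.7% to 96.4% identical over 21 pairs. Stfa1 and BC100530, which lie on opposite strands, were the closest pair (96.4%), followed by Stfa2l1 and Stfa2 (92.9%), also on opposite strands, and Gm5416 and BC100530 (92.6%). The letters TTNNGNAA, a loose form of the site bound by C/EBP factors, were present on either strand in 6 of the 7 windows and in 40.7% of all windows. AGGAAG, the core bound by PU.1, a factor of myeloid cells, was in 5 of the 7 and in 35.4%.

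Open chromatin was called at 1 of the 7 promoter windows in 1 of the 12 libraries, whereas 46.0% of 27025 genes had a promoter peak in at least 1 library and 35.0% in all 12. That peak, in BM CSF1R− replicate 3, spanned chr16:36156567-36156889 (323 bases) over the first exon and promoter of Stfa2l1, with a fold enrichment of 6.17 and a −log10 q of 12.96, and it contains the Stfa2l1 stretch printed above. This library held 73304 peaks, within the 43407 to 76530 of the 12 libraries. Past Stfa3, a peak 313 kb from the Stfa2l1 start was called in 2 libraries (BM CSF1R− replicates 1 and 3). A peak about 320 kb from that start was called in all 12 libraries with fold enrichments of 15.89 to 22.49, and a peak at the start shared by Fam162a and Ccdc58 was likewise present in all 12.

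Counting only peaks seen in at least 2 libraries, the locus lay in a stretch of 397.8 kb without a peak (chr16:36072389-36470175), and 800 of 85524 such gaps on the autosomes (0.935%) were at least as long. This share counts gaps and not bases. Long gaps cover more bases than short ones, so the share of bases in gaps this long is larger and was not computed. The number of peaks over the members and 10 kb on either side was 0, 0 and 0 in BM CSF1R+ and 0, 0 and 1 in BM CSF1R−, and 0 in each of the 6 spleen libraries. With 1 peak in all, an exact permutation test could give no other p than 1.0 for CSF1R+ against CSF1R− cells in either tissue or for BM against spleen, so these counts do not bear on whether the groups differ. The authors kept uniquely aligned reads, so closely similar copies could lose reads, and the part of this in the missing peaks was not tested.

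The single-cell tables held 20798 culture and 10885 tumor cells, with values that were the natural log of 1 plus a depth-corrected count in 100% of entries (within 0.01 of a whole number). Because both tables read transcript 3′ ends, counts were compared between genes without division by length. The tables were corrected separately, so no level was compared between culture and tumor. Neutrophil-like cells were 478 of 4846 and 446 of 5389 in the Mo-MF libraries (9.86% and 8.28%), 34.9%, 55.4%, 45.5% and 51.6% of TAM libraries 2 to 5, 3 of 5237 in B-MF replicate 1, and 0 of 5326 in B-MF replicate 2, which allows a share of up to 0.0563%. That limit covers counting error only.

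The labels were checked against marker genes. Csf3r, the G-CSF receptor of neutrophils, averaged 8.48 to 9.35 counts in the neutrophil-like cells of Mo-MF and 1.59 to 1.62 in the other cells, and 5.45 to 5.90 against 0.944 to 2.02 in TAM. Retnlg, a neutrophil-secreted resistin-like protein, averaged 46 to 47.1 against 0.0387 to 0.0461 in Mo-MF and 41.2 to 55.4 against 1.32 to 3.81 in TAM. Macrophage transcripts were present in the same cells. The complement genes C1qa, C1qb and C1qc summed to at least 10 counts in 65.5% and 69.7% of the neutrophil-like cells of Mo-MF and in 6.15% to 14.2% of those of TAM, and the 7 summed macrophage markers averaged 273 to 289 counts in the former against 581 to 599 in the other Mo-MF cells. Doublets were not searched for, and their part in these cells was not tested. Barcodes found in more than 1 library numbered 45 in culture (90 cells) and 13 in tumor (26 cells).

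Levels in the neutrophil-like cells are given as a description. The members were chosen from Mo-MF against B-MF, and most Stefin A counts of Mo-MF lay in these cells. BC100530 was the most abundant of the 7, with a mean corrected count per cell of 138.3 and 127.7 in Mo-MF and of 36.9, 53.8, 57.3 and 45.4 in TAM libraries 2 to 5. Gm5483 followed at 73.5 and 67.7 in Mo-MF and 30.4, 32.7, 37.3 and 33.8 in TAM. Stfa2 and Stfa2l1 came next in Mo-MF, at 52.7 and 49.5 for Stfa2 and 46.4 and 42.1 for Stfa2l1, whereas in TAM their ranges overlapped (21.7 to 28.7 and 24.4 to 28.9).

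The remaining 3 genes were far lower. Stfa3 averaged 18.8 and 16.9 counts in Mo-MF and 4.96, 7.80, 8.11 and 6.08 in TAM. Gm5416 averaged 8.64 and 9.92 in Mo-MF and 1.27, 0.967, 1.36 and 1.34 in TAM. Stfa1 averaged 0.370 and 0.336 in Mo-MF and 0.149 to 0.214 in TAM, and no neutrophil-like cell held more than 8 of its counts, against a highest count of 991 for BC100530. The order of the means was BC100530, Gm5483, then Stfa2 and Stfa2l1, then Stfa3, Gm5416 and Stfa1 in both sources. The libraries of Mo-MF did not overlap for any neighbours in this order, whereas in TAM those of BC100530 and Gm5483 and those of Stfa2 and Stfa2l1 did.

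**Figure D2:**
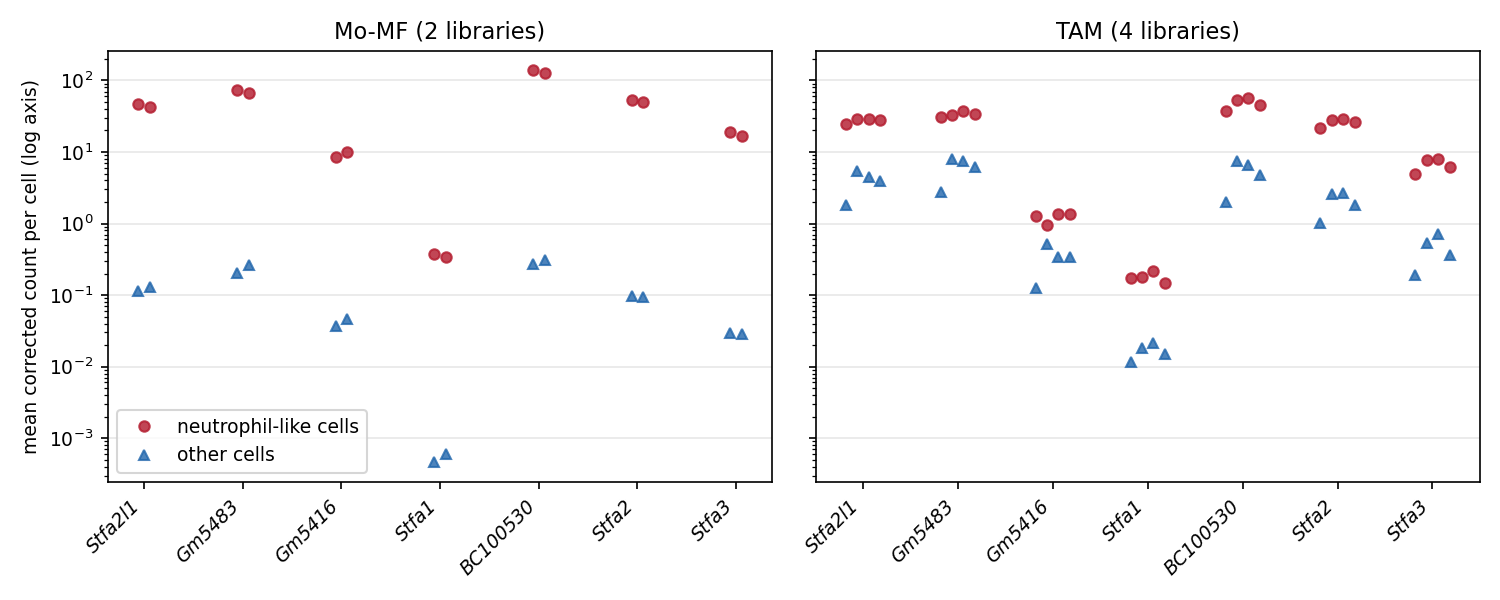
Mean corrected count per cell on a log axis for the 7 Stefin A genes in the 2 Mo-MF and the 4 TAM libraries, with circles for neutrophil-like cells and triangles for the other cells, 1 symbol per library. The circles of each gene stand above its triangles in each library. The gap looks smaller in TAM, but the gates differ (a summed S100a8 and S100a9 count of 100 in culture and 300 in tumor). The other cells of TAM thus include cells with larger sums, and the gaps are not compared.

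At least 1 Stefin A transcript was detected in 96.9% and 95.7% of the neutrophil-like cells of Mo-MF and in 95.7% to 97.8% of those of TAM. The sum over the 7 genes averaged 339 and 314 counts per neutrophil-like cell in Mo-MF and 120, 153, 161 and 141 in TAM. In the other cells it averaged 0.760 and 0.874 in Mo-MF and 7.90, 24.4, 22.2 and 17.5 in TAM. Neutrophil-like cells held 98.0% and 97.0% of all Stefin A counts of Mo-MF and 85.9% to 89.6% of those of TAM.

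In the other cells BC100530 was detected in 10.6% and 9.79% of Mo-MF cells and in 21.3% to 42.1% of TAM cells. After each cell was thinned to 5000 corrected counts, these shares became 3.92% and 3.399% in Mo-MF and 17.97% to 36.9% in TAM. No cell was left out. In the neutrophil-like cells they became 90.4% and 88.8% in Mo-MF and 80.3% to 86.5% in TAM. Thinning corrected counts does not equalise sequencing depth, and it removed a larger part of the counts in culture than in tumor. B-like cells of TAM, which should lack the gene, were positive for BC100530 in 26.7% to 71.4% (7 to 105 cells per library, median corrected total 7421 to 7601, against 8264 to 8466 in all cells below the gate). T/NK-like cells of TAM, which should lack it too, were positive in 5.88%, 18.2%, 17.9% and 7.69% of 11 to 28 cells per library. The shares in the other TAM cells thus lay below those of B-like cells in 2 libraries (2 and 4). They lay above those of T/NK-like cells in all 4, and how much of them is background was not settled. In TAM libraries 2 to 4, BC100530 was detected in 6.52%, 10.5% and 12.1% of cells with an S100a8 and S100a9 sum of 0 to 9. With a sum of 10 up to the gate it was detected in 59.0%, 70.1% and 71.3%. The latter cells held 344 of 441, 384 of 435 and 358 of 455 positive cells below the gate. The means of BC100530 in TAM were 2.003, 7.37, 6.53 and 4.83 in the other cells and 2, 1.25, 1.32 and 0.391 in the B-like cells. In T/NK-like cells the mean was 8.27 in library 3 (11 cells, highest count 90), above that of the other cells. It was 0.0588 in library 2 and 0.214 in library 4, and the sum over all 7 genes averaged 0.423 in library 5.

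In broad classes the level followed the S100a8 and S100a9 sum. With a sum of 0 to 9, BC100530 averaged 0.131 to 0.155 counts in Mo-MF (9114 cells) and 0.104 to 0.193 in TAM (3663 cells). With a sum of 10 up to the gate it averaged 6.85 to 7.49 in Mo-MF (197 cells) and 6.85 to 16.6 in TAM (2192 cells). Within 20% of the gate, cells just outside averaged 11.6 to 16.3 in Mo-MF and 11.3 to 17.97 in TAM, and cells just inside 12.7 to 14.5 and 14.96 to 32.1, so the gate cut through a gradient. In Mo-MF replicate 1 the cells just inside (12.7, 20 cells) averaged less than those just outside (16.3, 10 cells).

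B-MF held Stefin A transcripts in a handful of cells. In replicate 1, 99.04% of its 936 Stefin A counts came from 3 cells, and replicate 2 had 4 counts in 5326 cells. The 3 cells held 119, 73 and 99 counts of BC100530, 87, 24 and 114 of Gm5483, 84, 20 and 97 of Stfa2l1, 76, 30 and 57 of Stfa2, and 8, 14 and 25 of Gm5416, with no count of Stfa3 or Stfa1. Their summed C1q counts were 17, 467 and 13. Over all cells, as a description, the mean of BC100530 was 12.4 in Mo-MF and 0.0285 in B-MF, that of Gm5483 6.64 and 0.0216, and that of Stfa3 1.65 and 0. All 6 members that passed the filter on low values (a mean of at least 0.1) were higher in Mo-MF, as were 16.9% of 8633 genes (22.6% were lower). Below the gate, BC100530 (0.292 against 0.000758) and Gm5483 (0.236 against 0.000096) passed the filter and both were higher, as were 17.0% of genes (21.0% were lower). In both cases the members passed the filter only through Mo-MF, and this contrast chose them, so nothing is read from these counts.

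Individual neutrophil-like cells differed widely in their Stefin A content. Among granule-poor cells, defined as neutrophil-like cells with a summed Ngp, Camp and Ltf count below 10, the median sum over the 7 genes was 158 in each Mo-MF library and 65, 81, 100 and 74 in TAM libraries 2 to 5. The 90th percentile was 595 and 610 in Mo-MF and 297 to 385 in TAM. The 10% of these cells with the highest Stefin A sum held 34.3% and 31.4% of the counts in Mo-MF and 35.3% to 38.0% in TAM.

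A small class of cells had none. No member was detected in 3.64%, 2.78%, 1.97% and 4.04% of the granule-poor cells of TAM libraries 2 to 5. All of Stfa2l1, Gm5483, BC100530, Stfa2 and Stfa3 were detected together in 31.5%, 40.8%, 40.7% and 34.7% of them, and in 50.8% and 58.6% in Mo-MF. Gm5416 had 0 counts in 70.04% to 75.2% of the granule-poor cells of TAM and in 18.01% and 17.5% of those of Mo-MF. Stfa1 was at 0 in still more cells, 87.07% to 89.33% of granule-poor cells in TAM and 84.68% and 85.83% in Mo-MF.

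**Figure D3:**
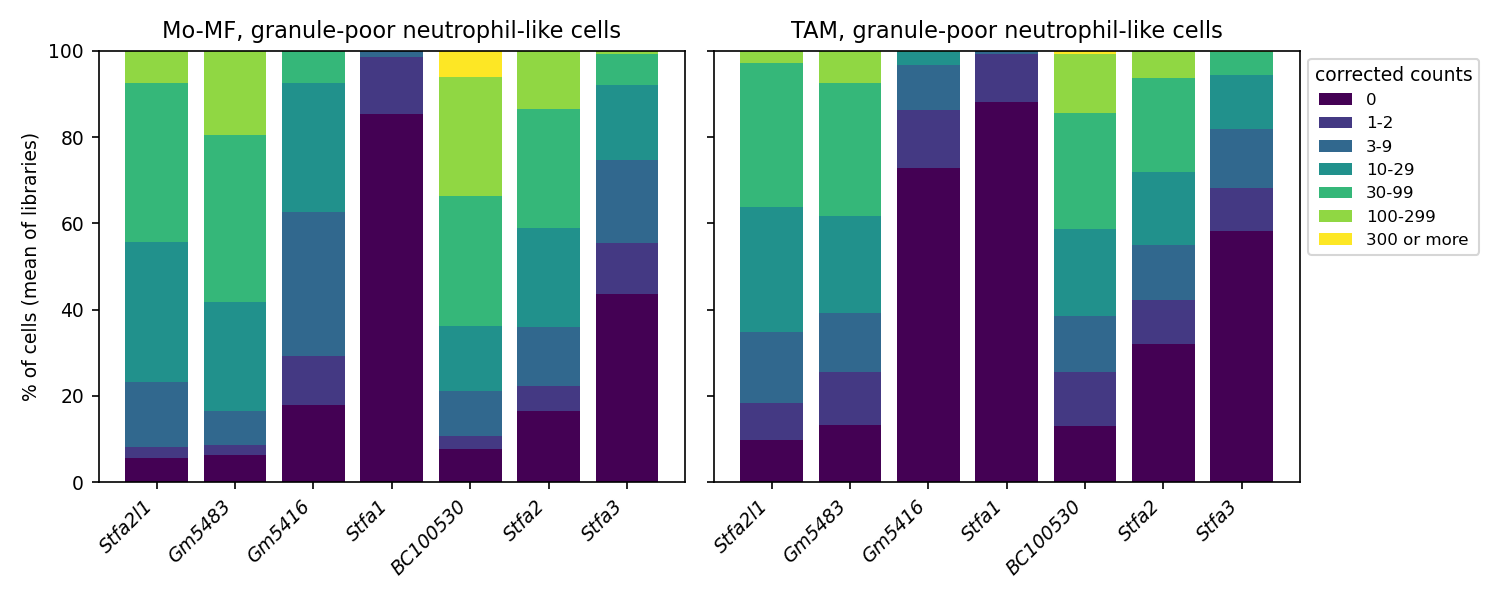
Share of granule-poor neutrophil-like cells (percent, stacked bars starting at 0) in classes of corrected count, for each Stefin A gene in Mo-MF and in TAM. Each bar is the mean over the libraries of that source. BC100530 has the widest spread, with 9.97% to 16.4% of the cells of single TAM libraries at 0 beside cells of 100 counts or more, whereas nearly all cells hold few or no counts of Stfa1.

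Genes of the 2 strands were set against each other within cells. A summed count of at least 30 for Stfa2l1 and Gm5483 (plus strand) together with at least 30 for BC100530, Stfa2 and Stfa3 (minus strand) was found in 38.5%, 44.4%, 49.7% and 41.4% of granule-poor TAM cells. Both sums were below 3 in 9.23%, 6.91%, 5.92% and 9.30%. Cells high on the plus strand and below 3 on the minus strand were 4.66%, 2.45%, 3.06% and 4.58%, and the reverse was 0.373%, 0.759%, 0.987% and 0.479%, so that among granule-poor cells the former outnumbered the latter in each of the 4 libraries. In granule-poor cells of Mo-MF the same shares were 0.807% and 0.833% against 0 and 0.278%. Among the granule-rich cells of TAM, described further on, the former were 1, 0, 0 and 0 cells and the latter 1, 4, 2 and 2.

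Co-expression was described by the Pearson correlation of ln(1 + count) across granule-poor cells within each library, averaged over libraries (4734 TAM and 732 Mo-MF cells). These cells share a library, and no p is given. In TAM the closest pair was BC100530 and Stfa2 (0.756, 0.733 to 0.771 over the libraries), neighbours on the minus strand, followed by Stfa2 and Stfa3 (0.705). The plus-strand neighbours Stfa2l1 and Gm5483 followed at 0.662, with 0.633 for the opposite-strand pair Stfa2l1 and BC100530. Gm5416 reached 0.386 with Stfa2l1 and 0.369 with BC100530, and Stfa1, whose counts are few, 0.310 with BC100530.

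By strand, the 3 minus-strand pairs averaged 0.705 in TAM, the 3 plus-strand pairs without Stfa1 0.478, and the 9 opposite-strand pairs without Stfa1 0.481. The last 2 averages include pairs of Gm5416, which had 0 counts in 70.04% to 75.2% of these TAM cells. The plus-strand pair without Gm5416, Stfa2l1 and Gm5483, stood at 0.662. In Mo-MF the same averages were 0.729, 0.752 and 0.654, with 0.894 for BC100530 and Stfa2, 0.866 for Stfa2l1 and Gm5483 and 0.727 for Gm5483 and Gm5416. Over all neutrophil-like cells of Mo-MF the averages were 0.775, 0.656 and 0.638. The order of minus-strand and plus-strand pairs thus depended on the cells taken. C1q counts summed to at least 10 in 65.5% and 69.7% of the neutrophil-like cells of Mo-MF and in 6.15% to 14.2% of those of TAM. The part of macrophage transcripts in these and the following correlations was not tested. Reads of similar transcripts cannot always be told apart. Of 90-base stretches in the last 500 bases of their transcripts, BC100530 shared 14.2% and Gm5483 7.96% with another gene. Stfa1 shared 7.76%, all of it with BC100530. Stfa2l1 shared 2.42%, Stfa2 2.09%, and Gm5416 and Stfa3 none. Counts of BC100530, Gm5483 and Stfa1 thus carry the most uncertainty.

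The members were also set against neutrophil markers. In TAM, correlations with S100a8 ran from −0.047 (Gm5416) to 0.289 (Stfa3), with Retnlg from −0.090 to 0.318 and with Csf3r from −0.071 to 0.064. In Mo-MF, those with S100a8 ran from 0.233 to 0.546 and those with Csf3r from 0.121 to 0.320. Stefin B (Cstb) was near 0 in TAM (−0.075 to 0.028) and negative in Mo-MF (−0.242 to −0.091). The corrected total of the cell, taken after the depth correction, correlated at −0.047 to 0.229 in TAM, and in Mo-MF at −0.430 for Stfa2l1 to −0.042 for Stfa1.

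**Figure D4:**
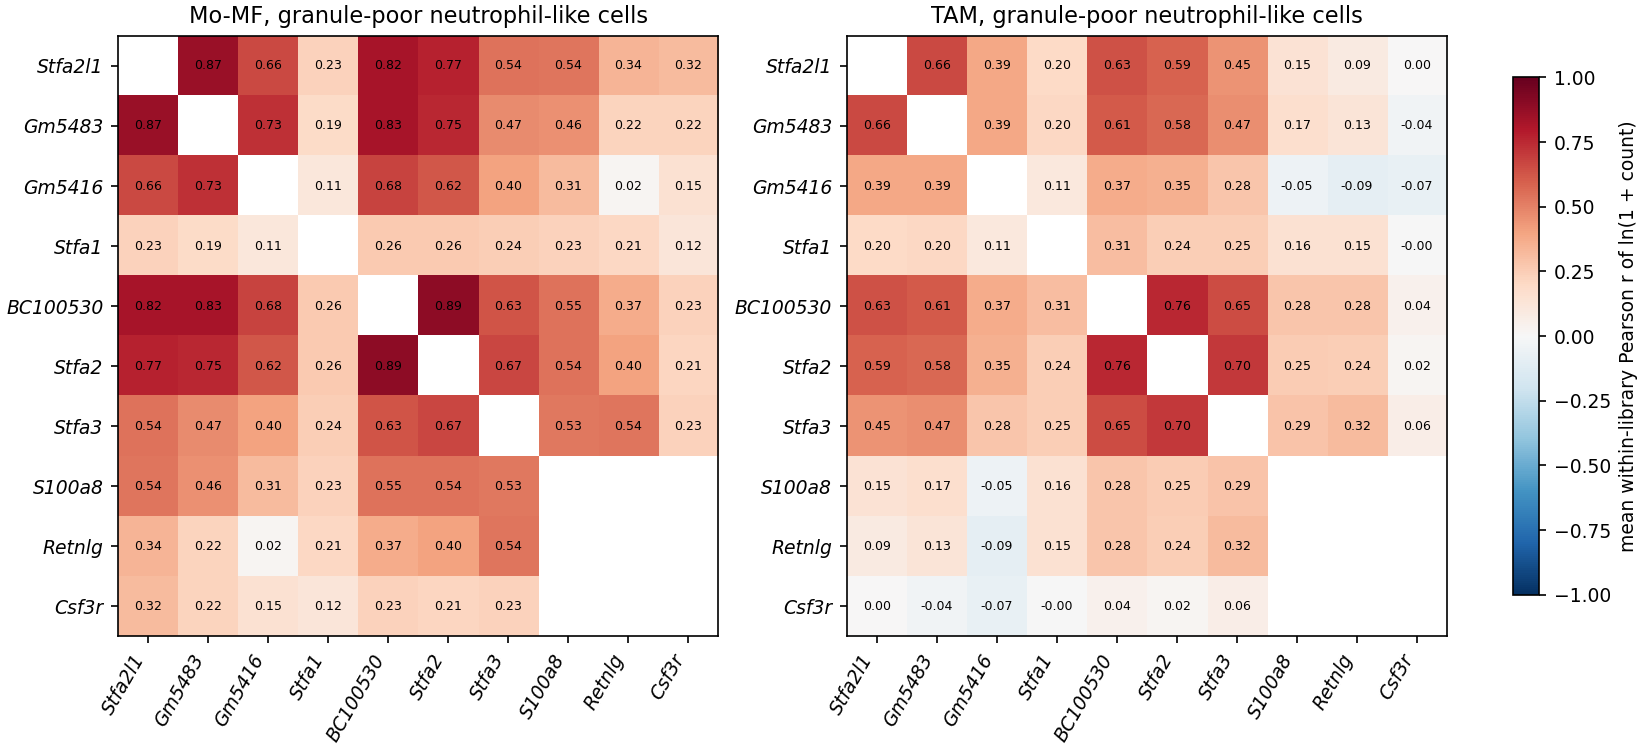
Heatmaps of the mean within-library Pearson correlation of ln(1 + count) across granule-poor neutrophil-like cells, 732 of Mo-MF and 4734 of TAM, between the 7 Stefin A genes, S100a8, Retnlg and Csf3r. The 5 abundant members form a block of high values in both, Stfa1 and, in TAM, Gm5416 sit lower, and Csf3r is near 0 in TAM.

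Across all neutrophil-like cells, the gene outside the 7 whose counts were most like the Stefin A sum was BC117090, a cystatin gene of the same cluster, in both TAM (0.612) and Mo-MF (0.628), and it shares 16.4% of its 90-base stretches with BC100530. In TAM it was followed by Fam162a (0.322), a mitochondrial protein gene separated from the cluster by Ccdc58, then S100a8 (0.259), Retnlg (0.237), Prdx5 (0.233), Wfdc21 (0.208), Mmp8 (0.206), Lcn2 (0.195), Gapdh (0.190) and Prok2 (0.182), of 4606 genes. Mmp8 and Lcn2 encode the collagenase and the siderophore-binding protein of neutrophil granules. In Mo-MF the next were S100a9 (0.530), S100a8 (0.455), Slc2a3 (0.360), Ly6g (0.344), S100a11 (0.341), Mmp9 (0.340), Pglyrp1 (0.340), Lcn2 (0.335) and Retnlg (0.331), of 7994 genes, with Fam162a at 0.213. The ranking depended on the cells taken. In granule-poor cells of Mo-MF, S100a9 (0.626) came before BC117090 (0.530), and Fam162a stood at 0.421. In those of TAM, BC117090 (0.598) and Fam162a (0.359) again came first.

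Neutrophil-like cells were next split at a summed Ngp, Camp and Ltf count of 10 into granule-rich cells and the granule-poor cells above. The split used no Stefin A gene, and both arms came from the same libraries (37, 99, 73 and 87 granule-rich cells in TAM, 106 and 86 in Mo-MF). Of the 7 members, 5 were higher and 2 lower in granule-rich cells of TAM, where 12.8% of 4394 genes were higher and 55.3% lower (limma with the library as a block, Benjamini-Hochberg adjusted p below 0.05). The members' median log2 difference was 0.79 and that of all genes −0.39. In Mo-MF, 6 were higher and 1 lower, where 11.5% of 8005 genes were higher and 30.1% lower, with medians of 1.25 and −0.20. With 2 libraries and a block, the Mo-MF fit left 1 residual degree of freedom per gene. Its SE and p-values thus rest largely on the spread shared across genes.

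Stfa3 rose the most in both. Its mean count per granule-rich cell was 25.4, 23.3, 25.9 and 23.8 in TAM libraries 2 to 5 against 4.25, 6.50, 6.83 and 5.03 in the granule-poor cells, and the arms did not overlap (log2 difference 2.13 ± 0.138 SE on the log2(mean + 0.1) scale, limma adjusted p = 4.55e-06). In Mo-MF it was 55.6 and 51.7 against 8.29 and 8.58 (2.65 ± 0.126, limma adjusted p = 0.000243). BC100530 reached 100, 107, 139 and 109 in granule-rich TAM cells against 34.7, 49.3, 51.4 and 41.6 (1.37 ± 0.113, limma adjusted p = 1.35e-05).

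BC100530 in Mo-MF was 303 and 268 against 91.5 and 94.2 (log2 difference 1.62 ± 0.130, limma adjusted p = 0.000935), again without overlap. Stfa2 was higher by a log2 difference of 0.85 ± 0.117 in TAM and 1.08 ± 0.127 in Mo-MF, and Stfa1 by 0.79 ± 0.122 and 1.25 ± 0.123 at counts below 1 per cell. Taking cells by granule count rather than in 2 arms, Stfa3 in TAM averaged 3.32 to 5.36 with a sum of 0, 10.95 to 14.4 with 1 to 9, 22.3 to 26.5 with 10 to 99 and 23.4 to 27.3 with 100 or more. The first 3 classes did not overlap between libraries, and the last 2 did.

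Gm5416 went the other way. It averaged 0.189, 0.152, 0.986 and 0.437 in granule-rich TAM cells against 1.31, 1.04, 1.38 and 1.39, lower in each of the 4 libraries without overlap between the arms (log2 difference −1.60 ± 0.260, limma adjusted p = 0.000556). In Mo-MF it was 3.43 and 5.23 against 10.1 and 11.04 (−1.30 ± 0.157, limma adjusted p = 0.00286). By granule count, it averaged 10.5 to 11.6 in Mo-MF cells with none, 7.74 to 8.09 with 1 to 9, 9.58 to 10.5 with 10 to 99 and 2.09 to 2.83 with 100 or more. In TAM it averaged 1.08 to 1.44 with none, 0.763 to 1.146 with 1 to 9, 0.125 to 1.06 with 10 to 99 and 0.0222 to 0.833 with 100 or more, and it was lower at each step in libraries 3, 4 and 5, whereas in library 2 the last class (0.308) was above the one before (0.125).

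Stfa2l1 differed in direction between the sources. In Mo-MF it was 78.8 and 68.2 in granule-rich cells against 37.2 and 35.8 (log2 difference 1.01 ± 0.126, limma adjusted p = 0.00323). In TAM it was 19.7, 24.9, 23.3 and 20.5 against 24.5, 29.2, 28.9 and 28.1, lower in each library although the arms overlapped (−0.33 ± 0.105, limma adjusted p = 0.0195), and close to the median of all genes. This call was lost when the granule threshold was set at 3 (adjusted p = 0.596) or 30 (0.0562), when the S100a8 and S100a9 gate was halved (0.11), or without library 5 (0.1). The difference between the sources was not tested, because the tables were corrected separately.

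Gm5483, its neighbour, rose in Mo-MF from 54.4 and 54.9 to 140.6 and 121.6 (log2 difference 1.26 ± 0.131, limma adjusted p = 0.00186). In TAM it was 48.2, 35.1, 44.0 and 43.6 against 29.8, 32.5, 36.8 and 33.3 (0.36 ± 0.124, limma adjusted p = 0.0256), with arms that overlapped, and the call was lost without library 2 (0.0961) or 5 (0.0772), with cells scaled to equal totals (0.165), with a pseudocount of 0.01 (0.0628), with no filter on low values (0.088) and with the gate doubled (0.114). The make-up of the Stefin A counts moved accordingly. In TAM, BC100530 made up 41.9% to 49.9% of the Stefin A counts of granule-rich cells against 30.1% to 33.8% in granule-poor cells, and Stfa2l1 8.26% to 10.6% against 18.9% to 21.2%.

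**Figure D5:**
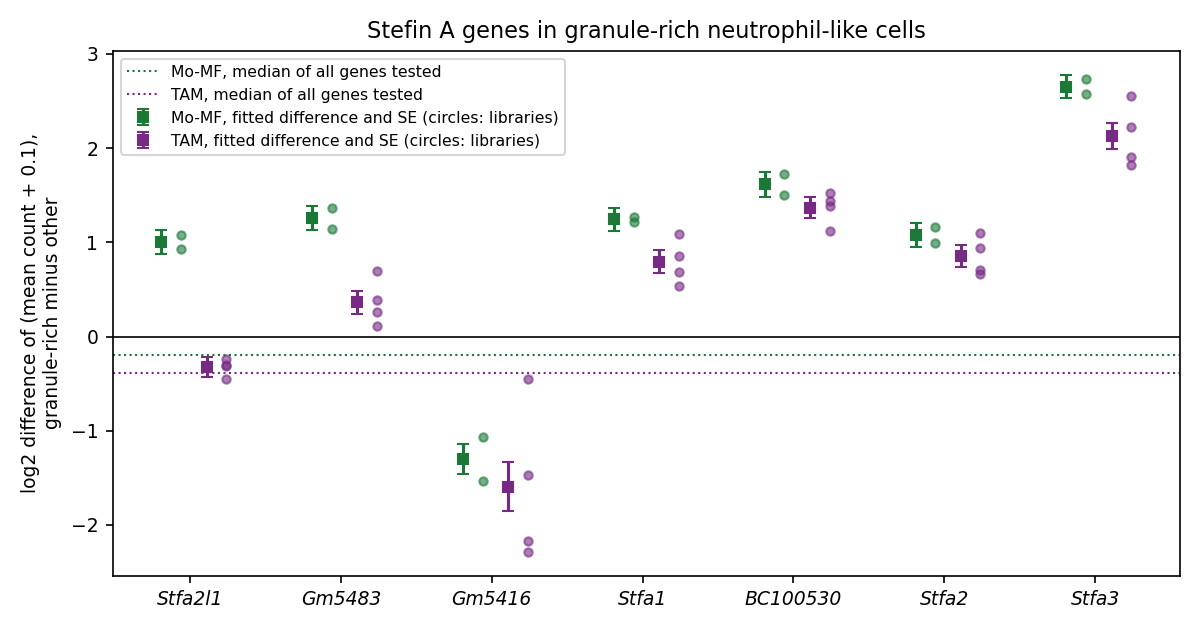
Log2 difference in mean count per cell between granule-rich and granule-poor neutrophil-like cells for each Stefin A gene, with squares and bars for the fitted value ± SE, circles for single libraries and a dotted line for the median of all genes (−0.39 in TAM, −0.20 in Mo-MF). The fitted values of Stfa3 and BC100530 lie far above the dotted line in both sources and that of Gm5416 far below it, with TAM library 4 close to the line for Gm5416, while Stfa2l1 is above 0 in Mo-MF and near the dotted line in TAM.

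Other measures moved with this split. S100a8 averaged 1495 to 1611 counts in granule-rich and 475 to 507 in granule-poor cells of TAM, and 1342 to 1346 against 309 to 321 in Mo-MF. The 7 summed macrophage markers were lower in granule-rich cells, at 3.62 to 5.78 against 7.19 to 11.4 in TAM and 173 to 188 against 301 to 314 in Mo-MF. Without cells of at least 10 C1q counts, an alternative chosen after seeing the data, the 7 members kept their directions and their calls in each source. In those fits 579 genes were higher and 2285 lower of 4321 in TAM, and 641 and 3597 of 7965 in Mo-MF, where the median of all genes moved to −0.47. Their part in the member differences was otherwise not tested.

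The cysteine cathepsins, the enzymes that stefins inhibit, were lower in granule-rich cells of TAM for 6 of 6 tested, where 55.3% of all genes were lower, with log2 differences of −1.72 for Ctsz, −1.40 for Ctsb, −1.16 for Ctsl, −1.07 for Ctss, −0.46 for Ctsh and −0.43 for Ctsc, and a median of −1.12 against −0.39 for all genes. In Mo-MF 5 of 8 were lower and none higher, where 30.1% of all genes were lower, with −1.55 for Ctsc, the activator of granule serine proteases, and −0.87 for Ctsz. Of 3 other cystatins tested, 2 were lower and 1 higher in each source. Cstb fell by 1.71 ± 0.127 in TAM (2.36 against 7.80 counts) and by 1.01 ± 0.122 in Mo-MF (11.6 against 23.3), and Cst3, the secreted cystatin C, by 0.86 and 0.92, whereas BC117090 was higher by 1.52 and 2.11. The summed macrophage markers fell across the same split, and their part in the cathepsin and cystatin differences was not tested.

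Within the granule-poor cells of TAM, those with a summed Ccl3 and Ccl4 count of at least 20 (321, 296, 324 and 364 cells) were compared with the rest (752, 890, 689 and 1098). Ccl3 and Ccl4 are inflammatory chemokines that tumor neutrophils and macrophages secrete. Of the 7 members, 2 were higher and 1 lower, where 13.5% of 4593 genes were higher and 23.9% lower, and the members' median was −0.01 against −0.06 for all genes.

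Stfa3 was the lower one, at 2.88, 4.64, 5.94 and 3.401 counts in chemokine-high cells of libraries 2 to 5 against 4.84, 7.12, 7.24 and 5.57 (log2 difference −0.58 ± 0.083, limma adjusted p = 0.000668). It was lower in each library, although the arms overlapped. Gm5483 was higher, at 34.2, 36.1, 42.6 and 37.3 against 27.9, 31.4, 34.1 and 31.9 (0.26 ± 0.064, limma adjusted p = 0.0102). Gm5416 was higher too, at 1.39, 1.28, 1.97 and 1.73 against 1.27, 0.954, 1.10 and 1.28 (0.42 ± 0.097, limma adjusted p = 0.00738).

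Each of these 3 differences had the same sign in 4 of 4 libraries. With the library block left out, the calls for Stfa3 (adjusted p = 0.0553) and Gm5483 (0.0617) were lost, that for Gm5483 was also lost with a chemokine threshold of 5 (0.0874), and that for Gm5416 with no filter on low values (0.102). BC100530 (−0.17 ± 0.068), Stfa2 (−0.11), Stfa2l1 (0.09) and Stfa1 (−0.01) did not pass. S100a8 was lower in chemokine-high cells of all 4 libraries (log2 −0.17 to −0.27), and its part in these differences was not tested. Cstb was higher by a log2 difference of 0.66 (limma adjusted p = 0.000136), as were 2 of 6 cathepsins, Ctsz by 0.47 and Ctsb by 0.22.

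A split of the same cells by the interferon-induced genes Rsad2, Ifit1 and Ifit3, at a summed count of 5, gave no call for any of the 7 members in limma, with 1 of them (Stfa3) at an unadjusted p below 0.05. For comparison, 7.79% of 4611 genes were higher and 6.48% lower. Stfa3 differed by −0.31 ± 0.130 (limma adjusted p = 0.144) and Gm5483 by 0.18 ± 0.121. In library 4, Gm5483 was at 53.7 against 33.7 and Gm5416 at 2.80 against 1.12, and without this library the difference of Gm5416 turned to −0.12. Of the cathepsins, Ctss, a protease of antigen presentation, was higher by 0.59 and Ctsz by 0.37, and Cstb was higher by 0.37.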

How the data were processed

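Per the labels and the study's methods, single-cell libraries (10x 3′ chemistry) were counted with Cell Ranger on mm10, and the authors kept cells with enough detected genes and corrected counts for depth with SCTransform. The deposited values were the natural log of 1 plus the corrected count, and counts were recovered as exp(value) − 1, rounded. Depth before correction is not recoverable from these tables. Median corrected totals per cell were 18350 to 19469 in culture and 7651 to 8266 in tumor. ATAC-seq reads were trimmed with cutadapt and aligned with BWA, and the authors called peaks per library with MACS2. The deposited peak lists give a fold enrichment, a ratio over background, with −log10 p and −log10 q, and no read counts. A deposited list that joins the peaks of all 12 libraries was not used.

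Means of corrected counts per cell were taken per library and arm, and log2(mean + 0.1) was fitted with limma 3.58.1 (R 4.3.3), two-sided, with Benjamini-Hochberg adjustment over all genes with a mean of at least 0.1 and a threshold of 0.05. The library was a block where both arms came from the same library. Libraries, not cells, were the replicates, and the tumor libraries carry numbers 2 to 5 that could not be matched to single sample titles. B-like cells had a summed Cd79a, Cd79b and Ms4a1 count of at least 3, and near the gate meant within 20%. Peak numbers were compared by exact permutation over libraries (Python 3.11.15, scipy 1.17.1). Promoter sequences were those of RefSeq (GRCm38.p6), matched by symbol for 7 of 7 genes, and motifs were searched as exact letters. The scripts were tested on simulated data. The members, gates and gene lists were chosen with earlier results of these data known. Genes named beside the members are cathepsins and cystatins that passed or bear on a result, the genes of a gate, and the 10 most like the Stefin A sum in each source. The markers Csf3r and Retnlg and the flanking genes are named too, and not every cathepsin that passed in Mo-MF is named. Replicate numbers of the culture libraries were not taken to pair them (a correlation of deviations of 0.126 over 8633 genes, with 2 pairs).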

Additional observations from a re-analysis of the deposited data

Results flagged for a closer look

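The number of ATAC-seq peaks across the Stefin A locus was 1 in BM CSF1R− replicate 3 and 0 in the other 5 BM libraries. Any single peak in 1 library would stand apart in this way, so it says only that the peak exists. Of 51 groups of values checked for a sample far from the others it was the only one found, and chance marks about 1 in 20 groups. The peak is the one at the Stfa2l1 promoter described above.

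Stfa2l1 was higher in granule-rich cells by a log2 difference of 1.01 in Mo-MF (1.08 and 0.93 in the 2 libraries) and differed by −0.33 in TAM (−0.31, −0.23, −0.31 and −0.45 in the 4 libraries). Taken against 0, all libraries of the one source thus moved opposite to all of the other. The median of all genes was −0.39 in TAM and −0.20 in Mo-MF, so Stfa2l1 in TAM lay close to that of all genes. Its call in TAM was also lost under several settings, given above. The difference between the sources was not tested.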

How the results depend on the processing

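Leaving aside Mo-MF against B-MF, which chose the members, 373 of 402 values for single members under the alternatives kept their direction and their side of the threshold, 14 lost a call, 6 gained one and 9 changed sign, the last all among values that did not pass. Those 9 were, between chemokine-high and other cells, Stfa1 at 0.0037 with cells scaled to equal totals, 0.0012 with a threshold of 50, 0.0757 without library 3 and 0.0141 without library 4 (−0.0633 to 0.0757 with 1 library left out), and BC100530 at 0.0081 with a threshold of 50. Between interferon-high and other cells they were Stfa2l1 at −0.0651 and Gm5416 at −0.116 without library 4 (highest 0.1265 and 0.4851 with another left out), and Stfa2l1 at −0.0023 and −0.0294 with thresholds of 2 and 10. The causes were not tested.

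Counts of called genes depended more on the settings. Mo-MF against B-MF gave 3413 called genes, 1991 to 5535 with 1 library left out, and below the gate 3263, 1932 to 5409 likewise. With the replicate block these became 3908 and 3870. Members called below the gate were 2, against 6 with no filter (where 1628 of 15842 genes were higher), 4 with the gate doubled (1460 of 8607) and 1 to 2 with 1 library left out, and nothing is read from these, since this contrast chose the members. Leaving out B-MF replicate 1 or 2 moved the share of calls that were higher in Mo-MF from 42.7% to 56.8% or 30.4%. Granule-rich against granule-poor cells of TAM gave 2991 called genes, and 1221 with a mean of at least 0.5. The chemokine split gave 1717, against 958 with that filter and 1096 with no replicate block, and its called members were 3, against 5 with a pseudocount of 1 and 1 with no replicate block. The interferon split gave 658, against 298 with no filter, 431 with no replicate block, 429 with the gate doubled and 359 to 575 with 1 library left out, and its called members were 0, against 1 with a threshold of 2. Scaling cells to equal totals moved the median of all genes in the TAM granule split from −0.39 to −0.49. For the Mo-MF granule split, leaving out 1 library leaves no residual degrees of freedom, so no test was made. Peak numbers with 50 kb flanks gave exact permutation p-values of 0.2 for CSF1R+ against CSF1R− cells in BM (4 against 9 peaks, where 3 against 3 cannot go below 0.1), 1.0 in spleen (3 against 3 peaks) and 0.061 for BM against spleen (13 against 6). Apart from the peak at Stfa2l1, the peaks in this wider span all lie past Stfa3, some of them within Casr. BM libraries also held more peaks in total (65832 to 76530) than spleen libraries (43407 to 50392), and the part of this was not tested. The replicate block for peaks (exact sign flips within same-numbered replicates, added after seeing the data) could give only p = 1.0 on a single peak. Depth limits the results for Stfa1, which was below 1 count per cell in each source.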
